A study of Mus musculus with 2 samples.

Results

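The genes of the respiratory chain were followed through the vessel types of the mouse ileum: 97 of the 31053 gene rows, 13 encoded by the mitochondrial genome (symbols starting mt-) and 84 by nuclear chromosomes. They were chosen by symbol alone. The nuclear members comprised 37 rows of complex I (Nduf), 4 of complex II (Sdh), 8 of complex III (Uqcr), 18 of complex IV (Cox4 to Cox8) and 17 of complex V, the ATP synthase (Atp5). The data were 2 single-cell 3' RNA libraries of small intestinal endothelium, taken at 8 weeks of age from C57Bl/6 mice that were male and wild-type. Ileal cells had been sorted as CD31+ EpCAM- CD45-, PDPN- for blood and PDPN+ for lymphatic endothelium. The labels tie no cell to a gate and do not give the mouse behind either library. The p-values therefore measure only how far differences between classes varied across these 2 libraries, a spread that may be technical.

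The respiratory chain passes electrons from NADH and succinate to oxygen through complexes I to IV and uses the proton gradient to make ATP in complex V. The mitochondrial genome is transcribed as long precursors, 1 from each strand, that are cut into single messages, and it encodes core subunits of complexes I, III, IV and V. All of complex II and the remaining subunits come from nuclear genes, and endothelial cells are known for drawing much of their ATP from glycolysis.

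Cells were placed in 5 classes by raw counts of unique molecular identifiers (UMIs, 1 per captured RNA molecule). Lymphatic cells had at least 5 UMIs of Mmrn1, Lyve1 and Prox1 together, and blood cells at least 5 of Flt1, Cd34, Plvap and Esam. Among blood cells, venous cells had at least 4 UMIs of Ackr1, Selp and Madcam1, and arterial cells at least 3 of Sema3g, Fbln5 and Stmn2. The remaining blood cells were called Plvap-high capillary where Plvap exceeded Gpihbp1 plus Aqp1, and Gpihbp1/Aqp1-high capillary otherwise. Libraries 1 and 2 gave 78 and 976 lymphatic, 147 and 883 arterial, 70 and 267 venous, 361 and 2362 Plvap-high and 231 and 1084 Gpihbp1/Aqp1-high cells. Summed lymphatic, venous and arterial markers that did not cut the classes were highest in the class of that name. The lymphatic genes Pdpn, Flt4, Ccl21a and Reln summed to 11013 and 9853 CPM in lymphatic cells (CPM being UMIs of a gene scaled to the total of its class and library) and to at most 138 CPM in any blood class. The venous genes Vwf, Nr2f2 and Vcam1 summed to 2381 and 2202 CPM in venous cells against at most 498 CPM in the other blood classes, though to 1039 and 1030 CPM in lymphatic cells, nearly all of it Nr2f2. The corresponding sums were, for the arterial genes Gja4, Gja5, Hey1 and Bmx, 919.9 and 843 CPM in arterial cells and at most 333 CPM elsewhere. The capillary genes Cd36, Kdr, Rgcc and Car4 separated the Plvap-high class little from arterial cells, at 3370.2 and 3529 CPM against 2819 and 2958 CPM, and stood at 6298 and 6387 CPM in Gpihbp1/Aqp1-high cells.

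Because the assay counts the 3' ends of messages, the ends of 2 mt- genes with the largest fitted differences in lymphatic cells (mt-Co1 and mt-Nd5) and of 2 with small ones (mt-Co2 and mt-Atp6) are shown first. They are the last 60 bases of each gene on the plus strand of GRCm38, from the GENCODE vM21 transcripts, with the stop codon in capitals. The mt-Co1 end covers chrM:6813-6872, mt-Nd5 chrM:13506-13565, mt-Co2 chrM:7637-7696 and mt-Atp6 chrM:8548-8607.
mt-Co1: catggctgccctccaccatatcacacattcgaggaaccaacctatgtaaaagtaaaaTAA
mt-Nd5: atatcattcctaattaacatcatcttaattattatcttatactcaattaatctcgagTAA
mt-Co2: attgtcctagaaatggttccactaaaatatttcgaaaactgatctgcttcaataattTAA
mt-Atp6: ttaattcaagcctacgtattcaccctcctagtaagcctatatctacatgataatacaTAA
The next pair shows where neighbouring mt- genes overlap on the same strand, with the shared bases in capitals and 20 bases on each side. The end of mt-Atp8 and the start of mt-Atp6 share 43 bases, and those of mt-Nd4l and mt-Nd4 share 7 (shown over chrM:7907-7989 and chrM:10147-10193). The ends of mt-Nd5 and mt-Nd6 also share 14 bases, on opposite strands.
mt-Atp8 and mt-Atp6: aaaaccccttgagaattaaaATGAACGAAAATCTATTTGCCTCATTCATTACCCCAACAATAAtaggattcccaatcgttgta
mt-Nd4l and mt-Nd4: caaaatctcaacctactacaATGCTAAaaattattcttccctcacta
Reads in shared bases cannot be assigned to 1 gene, and mt-Atp8 and mt-Nd4l were counted at low levels, so values of these overlapping genes are uncertain. The sources do not state whether the counting used strand, so mt-Nd5 and mt-Nd6 may share reads too. Several nuclear members have processed copies elsewhere in the genome that can take some of their reads.

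Lymphatic and venous cells held the most mt- RNA. The mt- genes made up 3.8 and 4.97% of all UMIs in lymphatic cells of libraries 1 and 2, and 4.35 and 4.11% in venous cells. They made up 2.58 and 2.95% in Plvap-high capillary cells, 2.36 and 2.83% in arterial cells and 2.02 and 2.54% in Gpihbp1/Aqp1-high capillary cells. Every lymphatic and venous value lay above every value of the other 3 classes. Among those, the arterial values overlapped both capillary classes, which did not overlap each other. The nuclear members followed another order. They made up 1.36 and 1.55% of UMIs in lymphatic cells, 1.19 and 1.35% in Plvap-high, 1.14 and 1.28% in Gpihbp1/Aqp1-high, 1.13 and 1.28% in arterial and 0.981 and 1.17% in venous cells. Within each library lymphatic cells were highest and venous cells lowest in the nuclear part. The ratio of mt- to nuclear UMIs was therefore highest in venous cells, at 4.43 and 3.50, followed by lymphatic cells at 2.79 and 3.21. It was 2.17 and 2.19 in Plvap-high, 2.09 and 2.21 in arterial and 1.77 and 1.98 in Gpihbp1/Aqp1-high cells, where the first pair of classes did not differ beyond the spread between libraries.

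**Figure D1:**
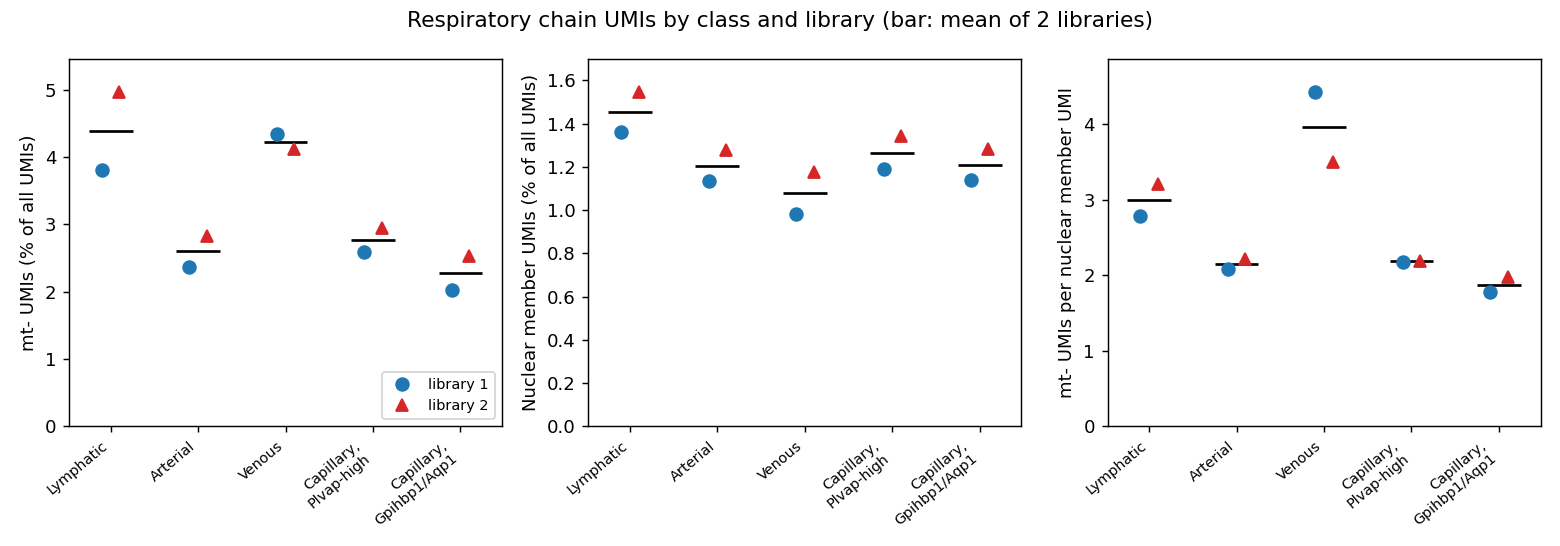
Percent of all UMIs from the 13 mt- genes (left), from the 84 nuclear members (middle) and mt- UMIs per nuclear UMI (right) for each class, with 1 point per library and a bar at the mean of 2 libraries. Venous cells join a high mt- share (4.35 and 4.11%) to the lowest nuclear share of each library (0.981 and 1.17%), while lymphatic cells are high in both.

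The 4 comparisons below share libraries and classes, so they are not independent of one another. The first set lymphatic cells against the mean of the 4 blood classes. Both parts of the chain were higher in lymphatic cells, the mt- genes by unequal amounts. Of 13 mt- genes 11 rose and none fell (edgeR quasi-likelihood test, false discovery rate 0.05), where 51.2% of the 10573 genes tested passed in either direction, 25.2% as higher and 26% as lower. The median log2 difference of the 13 was 0.40, against 0.01 over all genes tested.

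mt-Co1, the catalytic core of cytochrome c oxidase, stood at 9186 and 10889.6 CPM in lymphatic cells. It stood at 3545 and 4895 CPM in arterial, 7165 and 7538 in venous, 3876 and 4884 in Plvap-high and 2780.1 and 4228 in Gpihbp1/Aqp1-high cells. Both lymphatic values lay above all 8 blood values, a fitted log2 difference of 1.0 ± 0.08 (SE, adjusted p = 2.88e-16). mt-Nd5, a proton-pumping subunit of complex I, stood at 543 and 620.4 CPM in lymphatic cells and between 214 and 429 CPM in blood classes (log2 0.94 ± 0.09, adjusted p = 8.7e-13). mt-Nd4, its neighbour in the membrane arm, reached 2622 and 3068 CPM, above the blood range of 1029.9 to 2611 CPM (log2 0.77 ± 0.08, adjusted p = 1.76e-11). mt-Cytb, the only mitochondrially encoded subunit of complex III, reached 3256 and 4559.8 CPM against 1291 to 3055 CPM (log2 0.73 ± 0.08, adjusted p = 3.87e-11). For none of these genes did the lymphatic and blood values overlap.

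At the other end, mt-Co2, the subunit that takes electrons from cytochrome c, stood at 5056 and 6789 CPM in lymphatic cells against 3599 to 7245 CPM in blood classes, and the groups overlapped (log2 0.19 ± 0.09, adjusted p = 0.0657). mt-Nd6, which lies on the opposite strand from the rest, stood at 31.5 and 46.4 CPM against 25.9 to 53.7 CPM (log2 0.16 ± 0.18, adjusted p = 0.488). mt-Atp6, the ATP synthase subunit beside the rotor, rose by 0.21 ± 0.09 (adjusted p = 0.043). The other passing mt- genes, mt-Nd1, mt-Nd2, mt-Co3, mt-Atp8, mt-Nd3 and mt-Nd4l, had log2 differences from 0.32 to 0.59. Venous values overlapped the lymphatic ones for each of these and for mt-Atp6. mt-Nd1 stood at 1654 and 2534 CPM in lymphatic and 1916 and 2497 CPM in venous cells. The values were 2012 and 2487 against 2660 and 2248 for mt-Nd2, and 6678 and 9352 against 9688 and 8492 for mt-Atp6. For mt-Atp8 the fitted difference was 0.37 ± 0.13 and that of library 1 alone -0.18. DESeq2 called 9 mt- genes and 25 nuclear members.

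**Figure D2:**
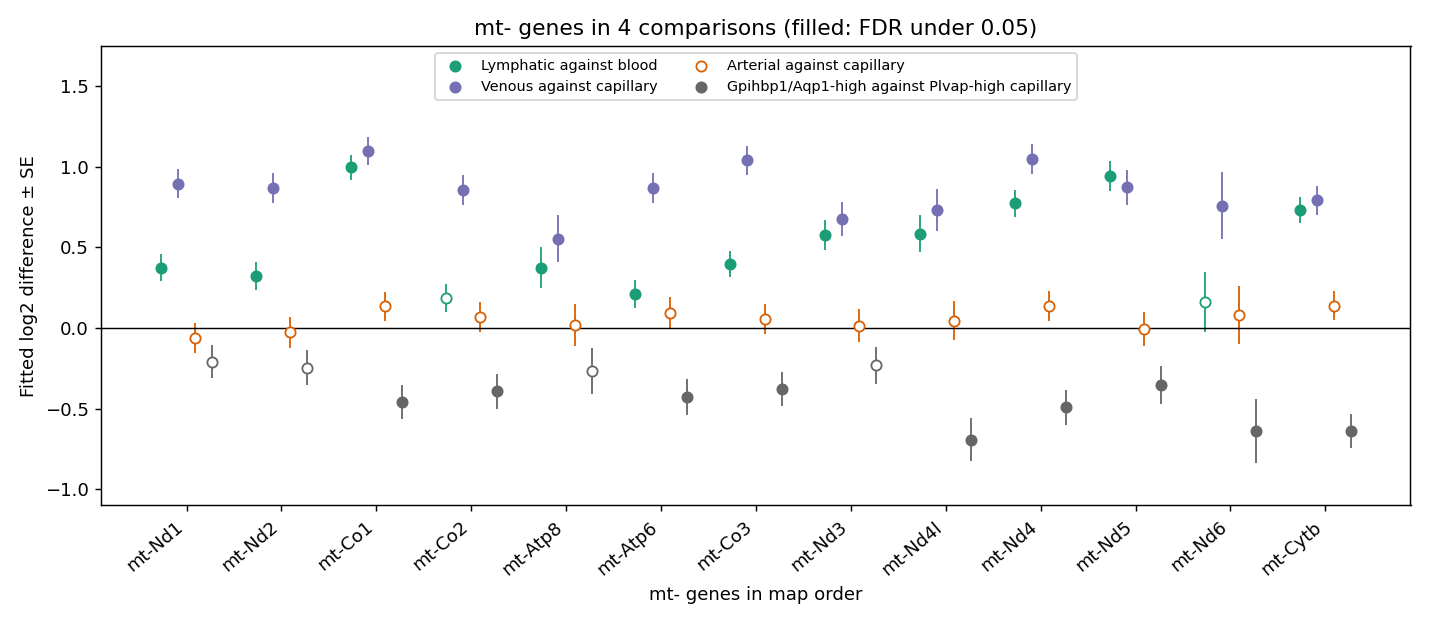
Fitted log2 difference ± SE of each mt- gene, in map order along the mitochondrial genome, in the 4 comparisons; filled points passed a false discovery rate of 0.05. The lymphatic differences spread from 0.16 to 1.0 while the venous ones run from 0.55 to 1.10, and the arterial ones lie near 0.

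The mix of mt- messages thus differed in lymphatic cells. mt-Co1 supplied 24.2 and 21.9% of mt- UMIs in lymphatic cells and between 13.8 and 18.3% in blood classes. mt-Co2 supplied 13.3 and 13.7% in lymphatic cells and between 15.6 and 17.8% in blood classes. Neither range overlapped. The ratio of mt-Co1 to mt-Co2 UMIs was 1.82 and 1.60 in lymphatic cells, against 0.772 to 1.17 over the 8 blood values. Among cells of 2000 to 6000 UMIs it was 1.84 and 1.58 in lymphatic cells, against 0.764 to 1.14 in blood classes. Mean log2 changes in share of the mt- pool ran from -0.49 (mt-Nd6) to 0.52 (mt-Co1) between lymphatic and blood cells, and from -0.14 to 0.066 between arterial and capillary cells. These shares are compared between classes only, since a gene's capture at its 3' end differs from gene to gene, and no test was made on them.

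**Figure D3:**
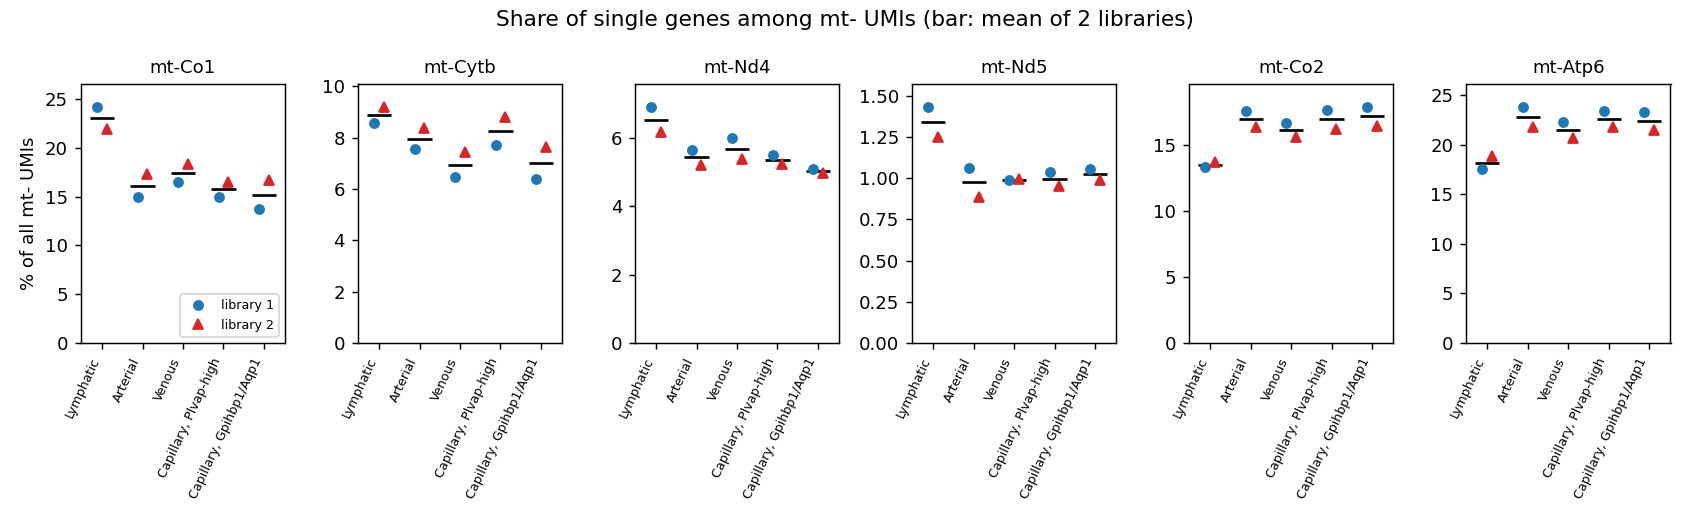
Share of all mt- UMIs held by 6 mt- genes in each class, 1 point per library and a bar at the mean. Lymphatic cells stand highest for mt-Co1 (24.2 and 21.9%) and lowest for mt-Co2 (13.3 and 13.7%) in both libraries.

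Depth differed between the classes, and neither it nor the mt- share followed the order of the other. Median UMIs per cell were lowest in lymphatic cells of both libraries (2894 and 2145) and highest in venous cells (4096.5 and 5397), with 3626 and 4546 in arterial, 3688 and 4166 in Plvap-high and 2999 and 3274 in Gpihbp1/Aqp1-high cells. In lymphatic cells of library 2 the mt- share was 7.05% below 2000 UMIs (446 cells), 4.92% from 2000 to under 4000 (377 cells) and 3.54% from 4000 to under 8000 (148 cells), while the nuclear share was 1.43, 1.55 and 1.65%. From 4000 to under 8000 UMIs the ratio of the parts was 2.12 and 2.15 in lymphatic cells, 1.79 and 1.94 in Plvap-high cells and 3.67 and 3.78 in venous cells. Below 2000 UMIs it was 4.87 and 4.91 in lymphatic against 4.77 and 6.25 in Plvap-high cells. Among cells of 2000 to 6000 UMIs, the lymphatic excess of the ratio, 0.19 and 0.41 on the log2 scale in libraries 1 and 2 (mean 0.30 ± 0.16, SD, n = 2), came to a mean of 0.02. In that window the ratio was 2.58 and 2.84 in lymphatic cells, above arterial (2.01 and 2.29), Plvap-high (2.12 and 2.32) and Gpihbp1/Aqp1-high cells (1.70 and 1.89) of the same library, while venous cells, which enter the blood mean, stood at 6.76 and 5.14. The window did not equalise depth: in library 2 the median was 3082 UMIs in lymphatic cells against 3322.5 to 4209 UMIs in blood classes. In that window 7 mt- genes passed, mt-Co1, mt-Nd5, mt-Nd4, mt-Cytb, mt-Nd4l, mt-Nd3 and mt-Co3, and 35 of 74 nuclear members were higher and 2 lower. The lymphatic excess in mt-Co1, mt-Nd5, mt-Nd4 and mt-Cytb was 0.90, 0.84, 0.65 and 0.59 there.

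**Figure D4:**
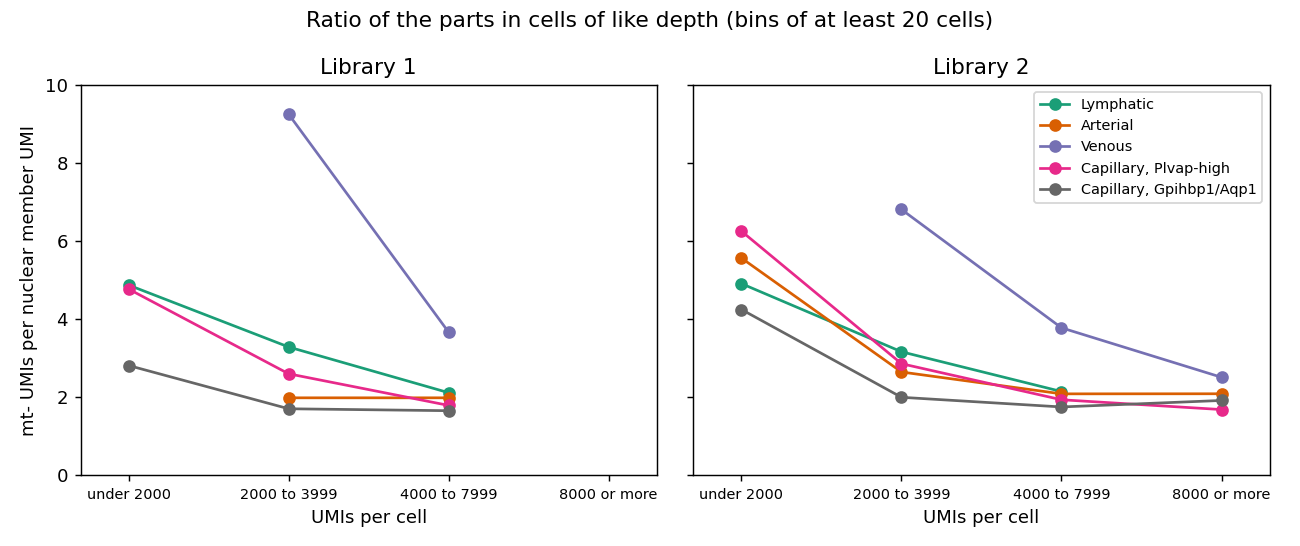
mt- UMIs per nuclear member UMI in bins of UMIs per cell (bins of at least 20 cells), for each class in library 1 (left) and library 2 (right). The ratio falls with depth in lymphatic cells, from 4.87 to 2.12 and from 4.91 to 2.15 between the lowest bin and that of 4000 to under 8000 UMIs, and venous cells stay above the other classes in every bin they fill.

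Other signs of RNA makeup differed between lymphatic and blood cells too. Malat1, a long RNA kept in the nucleus, stood at 11954 and 9961 CPM in lymphatic cells and between 22520.0 and 35925 CPM in blood classes, and fell by 1.47 ± 0.09 on the log2 scale (adjusted p = 1.15e-20). Neat1, another nuclear RNA, fell by 0.79 ± 0.14 (adjusted p = 0.000134). Genes of the cytosolic ribosome ran against the chain, with 48 of 80 lower and 12 higher in lymphatic cells at a median of -0.28. The part of these RNAs in the mt- result was not tested.

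The nuclear members rose more often than they fell in lymphatic cells: 32 of 77 tested were higher, 7 lower and 38 did not pass. Their median log2 difference was 0.16. The 50.6% that passed is close to the 51.2% of all genes, so the number of changes is not a result about these genes. By complex, 17 of 37 complex I members were higher and 5 lower, 3 of 4 of complex II higher, 5 of 8 of complex III higher, 4 of 12 of complex IV higher and 1 lower, and 3 of 16 of complex V higher and 1 lower. The lower member of complex IV was Cox4i2, and Ndufa4l2 was among the 5 of complex I. Both lay mostly in cells with pericyte RNA, as described below.

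In complex I, Ndufs6, a zinc-binding subunit of the NADH-oxidising arm (chr13:73319838-73328542), stood at 134 and 179.9 CPM in lymphatic cells and between 73.7 and 100.1 CPM in blood classes. The groups did not overlap (log2 0.79 ± 0.12, adjusted p = 1.18e-07). Ndufa8, an accessory subunit (chr2:36036326-36049406), ran the other way, with 78.7 and 111 CPM in lymphatic cells, 128 and 132 in arterial, 161 and 159.7 in Plvap-high, 168 and 221 in venous and 187 and 223 in Gpihbp1/Aqp1-high cells. It fell by 0.83 ± 0.13 on the log2 scale (adjusted p = 2.31e-07). Ndufa12 fell by 0.43 ± 0.15 and Ndufa4 by 0.37 ± 0.11. Ndufa4 carries a complex I symbol but is known as a subunit of complex IV.

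In complex II, Sdhc, a membrane anchor of succinate dehydrogenase (chr1:171127165-171150603), stood at 66.9 and 81.1 CPM in lymphatic cells and between 29.5 and 40.4 CPM in blood classes (log2 1.02 ± 0.15, adjusted p = 1.14e-07). Sdha, the flavoprotein subunit, rose by 0.36 ± 0.12 and Sdhd by 0.41 ± 0.16, while Sdhb, the iron-sulfur subunit, stood at 74.8 and 70.4 CPM against 67.9 to 101 CPM in blood classes and did not pass. In complex III, Uqcr10 rose by 0.50 ± 0.11 and Uqcrh, the hinge protein beside cytochrome c1, by 0.47 ± 0.10.

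In complex IV, Cox4i1, a nuclear subunit of the oxidase (chr8:120668222-120674207), stood at 740.2 and 866 CPM in lymphatic cells and between 326 and 534 CPM in blood classes. The groups did not overlap (log2 0.68 ± 0.09, adjusted p = 5.08e-09). Cox6a1 (chr5:115345642-115348981) reached 315 and 347 CPM against 125 to 251 CPM (log2 0.67 ± 0.10, adjusted p = 3.06e-07), and Cox6b1 rose by 0.55 ± 0.11. Cox5a, assembled early beside Cox4i1, stood at 189 and 241 CPM against 125 to 226 CPM and did not pass (log2 0.09 ± 0.11). The ratio of Cox4i1 to Cox5a UMIs was 3.92 and 3.59 in lymphatic cells and 1.91 to 3.73 in blood classes. These ranges overlapped through the venous value of library 1.

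In complex V, Atp5g1, Atp5g2 and Atp5g3 encode the same mature c subunit of the membrane rotor. Atp5g3 (chr2:73908447-73911326) stood at 276 and 236 CPM in lymphatic cells and between 114 and 153 CPM in blood classes (log2 0.73 ± 0.11, adjusted p = 1.66e-07). Atp5g2 (chr15:102662864-102672352) reached 323 and 320.2 CPM against 169 to 225 CPM (log2 0.69 ± 0.10, adjusted p = 6.03e-08). Atp5g1 did not pass, at 134 and 135 CPM against 76.5 to 154 CPM (log2 -0.01 ± 0.13). Atp5j, a subunit of the peripheral stalk (chr16:84827866-84835625), stood at 287 and 328 CPM against 318 to 515 CPM and fell by 0.53 ± 0.10 (adjusted p = 2.11e-05).

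**Figure D5:**
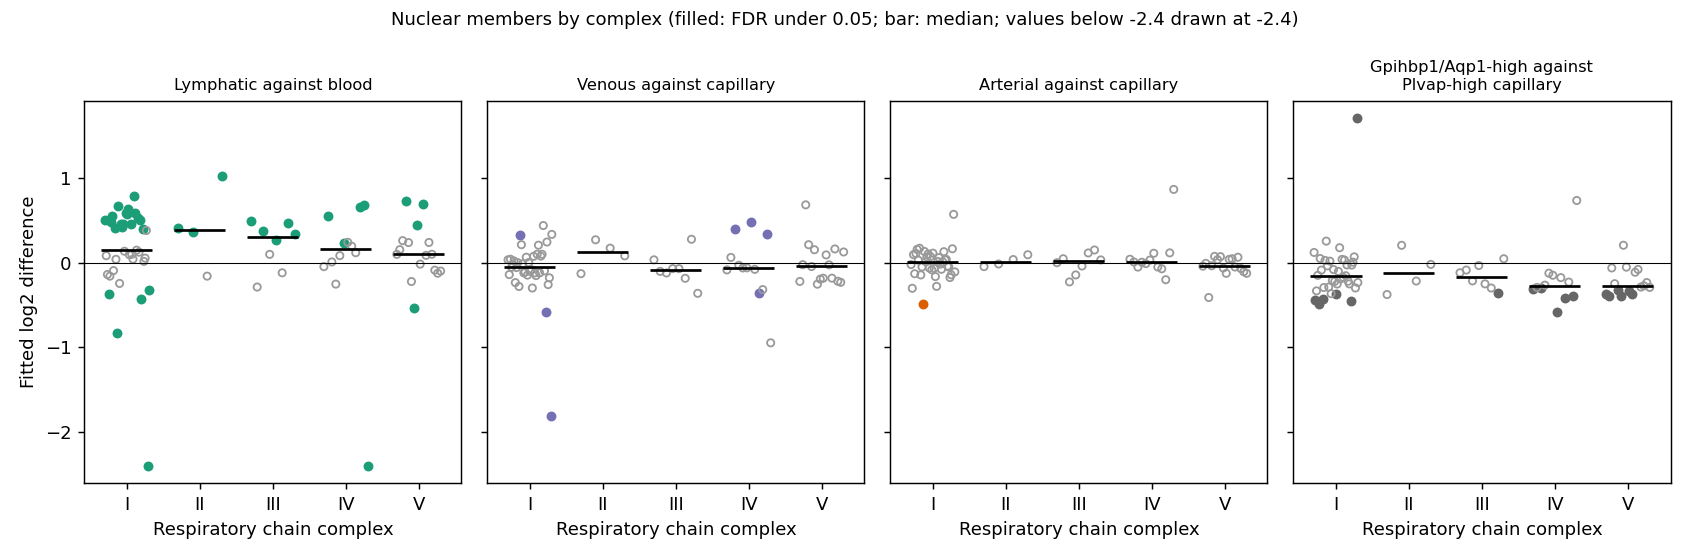
Fitted log2 difference of each nuclear member tested, by complex, in the 4 comparisons; filled points passed a false discovery rate of 0.05, bars mark medians, and the 2 lowest points are drawn at the axis limit. Complex I to III medians lie between 0.15 and 0.38 in lymphatic against blood cells, and most points lie near 0 in the arterial panel.

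Promoters of nuclear chain genes are known for sites of the factors NRF1 and GABP, an ETS protein. RefSeq promoters on GRCm38.p6, 250 bases before to 50 after the start, were found for 66 of 83 nuclear symbols. The NRF1 core of 10 letters with 1 of them free, on either strand, lay in 17 of the 66 (25.8%), against 5.19% of the 27025 genes in the table. Its strict palindromic form, contained in the former, lay in 5 (7.58% against 1.07%), and the ETS core CCGGAAG in 16 (24.2% against 9.93%). The relaxed NRF1 core lay in 10 of 26 members higher in lymphatic cells and in 6 of 32 that did not pass. The stretches below, all upstream of the start, belong to 4 members that rose in lymphatic cells and to Ndufa8, which fell, with the relaxed cores in capitals.
Ndufs6: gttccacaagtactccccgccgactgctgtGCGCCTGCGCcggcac
Ndufa11: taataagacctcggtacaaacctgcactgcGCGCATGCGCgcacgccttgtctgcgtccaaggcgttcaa
Cox6a1: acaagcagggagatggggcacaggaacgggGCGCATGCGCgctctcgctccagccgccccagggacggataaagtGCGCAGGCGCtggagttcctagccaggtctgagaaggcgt
Atp5g2: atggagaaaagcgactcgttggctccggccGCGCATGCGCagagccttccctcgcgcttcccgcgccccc
Ndufa8: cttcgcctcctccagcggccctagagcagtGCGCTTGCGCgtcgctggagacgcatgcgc
They lie at chr13:73328483-73328528, chr17:56717672-56717741, chr5:115349036-115349150, chr15:102671050-102671119 and chr2:36049339-36049398, on the minus strand except Ndufa11. The core was thus present in promoters of members that moved either way. A match is a stretch of letters, not evidence of binding.

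The second comparison set venous cells against the mean of the 2 capillary classes. The mt- genes rose together in venous cells and the nuclear members did not. All 13 mt- genes passed as higher, where 25.2% of all genes tested passed in either direction, 14.5% as higher and 10.7% as lower. Their log2 differences ran from 0.55 to 1.10, with a median of 0.87 against -0.026 over all genes.

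mt-Co1 rose by 1.10 ± 0.09 (adjusted p = 2.7e-15), from the values given above. mt-Co3, the third core subunit of the oxidase, stood at 7165 and 6982 CPM in venous cells and between 3121 and 4758 CPM in capillary cells (log2 1.04 ± 0.09). mt-Atp6 stood at 9688 and 8492 CPM against 4695 to 6433 CPM (log2 0.87 ± 0.09, adjusted p = 3.94e-10). Venous and capillary values did not overlap for these genes. mt-Co2, which did not pass in lymphatic cells, rose by 0.86 ± 0.09 here (adjusted p = 8.24e-11). mt-Nd6 passed but was higher in library 2 alone, with 33.7 and 53.7 CPM in venous cells against 33.8 and 40.8 in Plvap-high and 33.8 and 25.9 in Gpihbp1/Aqp1-high cells. Its log2 difference was 0.76 ± 0.21 in the fit and -0.0051 in library 1.

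Of 77 nuclear members, 4 were higher and 3 lower in venous cells (9.09%), with a median log2 difference of -0.056. Ndufa4l2, found mostly in cells with pericyte RNA, was among the 3. Without scaling by trimmed means the split was 1 higher and 14 lower, as that setting moved the median of all genes by -0.18 and their calls from 1532 higher and 1128 lower to 1145 higher and 1861 lower. Cox7a2l (chr17:83501918-83517330) stood at 309 and 286 CPM in venous, 296 and 263 in Plvap-high and 181 and 213 in Gpihbp1/Aqp1-high cells (log2 0.48 ± 0.12, adjusted p = 0.00121). Venous and Plvap-high values overlapped, so the difference lay mainly against the other capillary class. Cox6c rose by 0.40 ± 0.10, Cox4i1 by 0.34 ± 0.10 and Ndufa8 by 0.33 ± 0.12, the last with -0.042 in library 1 alone. Cox4i1 stood at 468 and 533 CPM in venous cells, overlapping the 438 and 534 CPM of Plvap-high cells. Among cells of 2000 to 6000 UMIs none of the 4 members passed as higher, since all 11 nuclear members that passed were lower. Ndufc2, a membrane-arm subunit of complex I, stood at 104 and 124 CPM against 168 to 213 CPM in capillary cells and fell by 0.58 ± 0.14 (adjusted p = 0.000756), and Cox7b fell by 0.36 ± 0.13.

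The mt- to nuclear ratio was higher in venous than in capillary cells by 1.17 and 0.75 on the log2 scale (mean 0.96 ± 0.30, SD, n = 2). Venous cells had the highest median UMIs of the 5 classes. Among cells of 2000 to 6000 UMIs the difference was 1.56, with 12 mt- genes higher and 11 nuclear members lower. That window did not equalise depth. The venous median in it was 3264 UMIs in library 1, below Plvap-high cells (3796.5), and 4209 in library 2, the highest class. The venous excess was smaller at higher depth. The ratio was 9.25 and 6.81 in venous cells from 2000 to under 4000 UMIs, against 1.71 to 2.86 in capillary cells. From 4000 to under 8000 UMIs it was 3.67 and 3.78 against 1.66 to 1.94. At 8000 UMIs or more, in library 2, it was 2.51 against 1.69 and 1.92. Malat1 did not pass between venous and capillary cells (log2 0.0094 ± 0.087). Genes of the cytosolic ribosome were higher as well, 70 of 80 tested with none lower, at a median of 0.48. Without cells holding 5 or more UMIs of pericyte, fibroblast, epithelial, leukocyte or erythrocyte markers, a choice made after seeing the data, all 13 mt- genes again passed as higher.

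The third comparison set Gpihbp1/Aqp1-high against Plvap-high capillary cells. In the former 9 of 13 mt- genes fell and none rose, and 17 of 77 nuclear members fell and 1, Ndufa4l2, rose. In this comparison 25.1% of all genes passed in either direction, 11.6% as higher and 13.5% as lower. The 23.4% of nuclear members that passed is close to the 25.1% of all genes, so their number is not a result about them. The nuclear share of UMIs differed by -0.061 and -0.070 on the log2 scale in libraries 1 and 2. Median log2 differences were -0.39 for mt- genes and -0.21 for nuclear members, against 0.014 over all genes. Without scaling the nuclear split was 4 higher and 2 lower, as all genes moved by 0.13 and from 1229 higher and 1430 lower to 1839 higher and 1041 lower, so the nuclear direction rested on the scaling. DESeq2 called 4 mt- genes and 3 nuclear members as lower and 1 as higher.

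mt-Nd4l fell by 0.69 ± 0.14, mt-Cytb by 0.64 ± 0.11 and mt-Co1 by 0.46 ± 0.10. mt-Cytb stood at 1291 and 1936 CPM against 1992 and 2595 CPM, lower within each library. Among nuclear members Cox7a2l fell most, by 0.58 ± 0.12 (adjusted p = 0.000152), with both values (181 and 213 CPM) below both Plvap-high values (296 and 263 CPM). Ndufb11, a membrane-arm subunit, stood at 118 and 146 CPM against 196 and 164 CPM (log2 -0.49 ± 0.13, adjusted p = 0.00262). Cox7b fell by 0.41 ± 0.12, Cox4i1 by 0.40 ± 0.11, Ndufa12 by 0.45 ± 0.14 and Ndufs8, an iron-sulfur core subunit, by 0.44 ± 0.16. By complex, 6 of 16 members of complex V, 5 of 12 of complex IV, 5 of 37 of complex I, 1 of 8 of complex III and 0 of 4 of complex II fell.

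The ratio of the parts was lower by 0.30 and 0.15 on the log2 scale in libraries 1 and 2. Without the limit on mitochondrial share, the direction in library 2 turned, with 2.31 in Gpihbp1/Aqp1-high against 2.22 in Plvap-high cells. Library 1 kept 1.77 against 2.17, and 6 mt- genes passed as lower in that setting. Genes of the cytosolic ribosome moved with the chain, 78 of 80 lower and none higher, at a median of -0.60. In library 2 the Gpihbp1/Aqp1-high cells held 2518 CPM of haemoglobin RNA (4 genes) and 346 CPM of 4 fibroblast markers. Plvap-high cells held 37.7 and 108 CPM of these, and 551 CPM of 6 epithelial markers. Reg3b alone gave 460 CPM of that epithelial sum, and Dcn 250 CPM of the fibroblast sum in Gpihbp1/Aqp1-high cells. Without cells of 5 or more UMIs of other cell types the counts were 9 mt- and 16 nuclear members lower and none higher.

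The fourth comparison set arterial cells against the mean of the 2 capillary classes, and few members passed. No mt- gene passed (log2 differences from -0.060 to 0.14), and 1 of 77 nuclear members did, where 10.4% of all genes passed, 7.12% as higher and 3.3% as lower. DESeq2 called 0 members. At an unadjusted p under 0.05, edgeR called 0 mt- genes and 2 nuclear members. The exception was Ndufa8, at 128 and 132 CPM in arterial cells against 159.7 to 223 CPM in capillary cells, which fell by 0.48 ± 0.12 (adjusted p = 0.00232). Ndufa8 thus stood lowest in lymphatic cells, next in arterial cells and highest in venous and Gpihbp1/Aqp1-high cells, whose values overlapped. The ratio of the parts was higher by 0.087 in each library. The arterial limit ran through many cells, as 75 of 147 and 421 of 883 arterial cells were at it or 1 UMI above. With higher class limits the ratio difference was 0.19 and 1 mt- gene, mt-Co1, passed as higher (log2 0.25, adjusted p = 0.0475).

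Tissue-restricted subunits were nearly absent. Cox6a2, Cox7b2 and Cox8c had 0 UMIs in all 5 classes, which allows up to 0.114 CPM each (3 counts of all class UMIs, counting error only), as had a second row named Atp5o. Cox7a1 and Cox8b, the heart and muscle paralogues of Cox7a2 and Cox8a, had 35 and 32 UMIs in all, and Cox6b2, known from testis, had 32. Their common partners Cox6a1, Cox6b1, Cox7a2 and Cox8a were each at 125 CPM or more in every class of both libraries.

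Cox4i2 and Ndufa4l2, the hypoxia-linked paralogues of Cox4i1 and Ndufa4, were low and lay mostly in cells with pericyte RNA. Cox4i2 had 0 UMIs in lymphatic cells and 145 in blood classes, at least 5.68-fold lower against 3 counts over the class. Ndufa4l2 had 2 and 195 UMIs, a blood to lymphatic ratio of 11.5 (95% interval 3.13 to 95.2, counting error only). It rose by 1.71 ± 0.38 between Gpihbp1/Aqp1-high and Plvap-high cells (adjusted p = 0.000279), at 21.6 and 14.0 against 1.44 and 5.09 CPM, and fell by 1.81 ± 0.69 in venous cells (adjusted p = 0.0475), which held 4 UMIs.

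Pericyte and smooth muscle markers (9 genes) summed to 253 and 426 CPM in Gpihbp1/Aqp1-high, 196 and 353 in arterial, 105 and 134 in Plvap-high, 70.4 and 251 in venous and 70.9 and 51.2 in lymphatic cells. Single genes made up much of some sums. Kcnj8 gave 63.0 and 38.0 CPM of the lymphatic sums, Abcc9 gave 70.5 and 57.4 CPM of the Plvap-high sums, and Tagln gave all of the venous sum of library 1. In library 2, 73 of the 5572 class cells held at least 5 UMIs of these markers, and these 73 cells held 159 Ndufa4l2 UMIs and 115 Cox4i2 UMIs. The other 5499 cells held 15 and 14. In library 1 the counts were 21 and 13 UMIs in 9 such cells and 2 and 3 in the other 878. Levels were 249 CPM of Ndufa4l2 and 179.9 CPM of Cox4i2 in the 73 cells, against 0.674 and 0.629 CPM in the rest. Without cells of 5 or more UMIs of other cell types neither gene passed the expression filter, so their class differences could not be fitted without those cells.

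Genes around the chain were read from lists. In lymphatic cells the shares of the assembly, mitochondrial ribosome and genome expression lists that passed lay below the 51.2% of all genes tested, so the counts are no result about these lists. Of 43 assembly factors tested, 6 were higher and 3 lower in lymphatic cells, led by Atpaf2, an assembly factor of complex V, at 43.3 and 49.97 CPM against 6.12 to 12.9 CPM (log2 2.31 ± 0.22, adjusted p = 1.88e-13). Cox17, the copper chaperone of complex IV, stood at 323 and 249 CPM against 76.1 to 122 CPM (log2 1.34 ± 0.11), and Sco1, which passes copper on, rose by 1.10 ± 0.37. Of 77 mitochondrial ribosome genes 21 were higher and 5 lower. Among 13 genes of mitochondrial genome expression, 2 were higher and 2 lower. Lrpprc, which binds and stabilises mt- messages, stood at 59.1 and 36.8 CPM in lymphatic cells against 8.18 to 19.3 CPM (log2 1.16 ± 0.23, adjusted p = 2.29e-05). Tfam, which packages and helps transcribe the mitochondrial genome, did not pass in any comparison.

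Glycolysis genes ran against the chain in lymphatic cells, with 12 of 16 tested lower and none higher at a median log2 difference of -0.97. Beside this and the other lymphatic counts of this paragraph stands the 51.2% of all genes that passed. Ldhb stood at 0 and 0.4 CPM in lymphatic cells and between 12.8 and 34.8 CPM in blood classes, and passed as lower. In Gpihbp1/Aqp1-high cells 10 of 16 were lower, where 25.1% of all genes passed. In venous cells 4 glycolysis genes were higher and none lower, among them the glucose transporter Slc2a1 (log2 1.95 ± 0.16). As 25.2% of all genes passed there, the venous count is no result about this list. Of 9 regulators tested, 2 were higher and 5 lower in lymphatic cells. Ppargc1b, a coactivator of mitochondrial genes, stood at 31.5 and 14.0 CPM against at most 2.56 CPM in blood classes (log2 3.75 ± 0.49), and the hypoxia factor gene Epas1 fell by 2.76 ± 0.12. Hif1a rose by 1.52 ± 0.12 in venous cells, at 303 and 346 CPM against 116 to 164 CPM in capillary cells. Cycs, which encodes cytochrome c, fell by 0.49 ± 0.13 in lymphatic cells and by 0.47 ± 0.13 in Gpihbp1/Aqp1-high cells. Of 13 electron carrier genes 3 were higher and 2 lower in lymphatic cells, a share below that of all genes and so no result about them. The ATPase inhibitor Atpif1 fell by 1.26 ± 0.14 in Gpihbp1/Aqp1-high cells. Of 10 hypoxia response genes 3 were higher and 7 lower in lymphatic cells. In arterial cells Epas1 rose by 0.57 ± 0.09, and 0 of 13 carrier and 1 of 77 mitochondrial ribosome genes passed, where 10.4% of all genes did.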

How the data were processed

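The authors deposited raw UMI counts as 1 matrix for each library, made with Cell Ranger 3.1.0 after bcl2fastq 2.2 on mm10 per the submitters' processing notes (1026 and 6302 barcodes, 3806199 and 26645476 UMIs, 2 barcodes shared). A cell was kept if it had 500 genes or more and no more than 15% mt- UMIs (978 and 6067, medians of 3371 and 3814 UMIs). Of these, 3 and 96 met both lymphatic and blood limits, 28 and 171 venous and arterial limits, and 60 and 228 neither lymphatic nor blood limits, and they stayed out of the classes. Scrublet (scanpy 1.11.5) called 4 and 5 cells (0.409 and 0.0824%). No doublets were removed, and some may remain.

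UMIs were summed per library and class (10 sums) and fitted together in edgeR 4.0.16 (R 4.3.3; quasi-likelihood, robust, TMM, minimum count 10, library as block), with Benjamini-Hochberg adjustment over 10573 genes. The block was used since each library holds all 5 classes. The fit had 4 residual degrees of freedom and a median of 47.4 prior ones. The genes that cut the classes were not tested. SE is the absolute log2 difference over the square root of F, ranges quoted for blood classes are over 8 values (4 classes in 2 libraries), and CPM is over all UMIs of a sum. The scripts were tested on simulated data. Alternatives used DESeq2 1.42.0, scaling, filters, cell limits, depth, class limits and doublet scores.

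Named members were all mt- genes, paralogue pairs, up to 6 passing nuclear members per direction and comparison of at least 20 CPM, the highest of each complex, and up to 3 passing genes per list. Members and lists were chosen with earlier results of these data known. Other genes named, such as Sdha, Sdhb, Sdhd, Cox5a, Atp5g1, Tfam and Cycs, were chosen after their values were seen. Class cells come from marker counts, so fewer marker UMIs at low depth can keep a cell out. Coordinates are GENCODE vM21 on GRCm38. Results for some single genes are not reported here.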

Additional observations from a re-analysis of the deposited data

How the results depend on the processing

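With 2 libraries, neither could be tested alone. Without the library as replicate block, 6 mt- and 24 nuclear members passed in lymphatic, 0 nuclear in arterial, 2 nuclear in venous and 1 mt- and 2 nuclear in Gpihbp1/Aqp1-high cells. DESeq2 gave 25 nuclear members in lymphatic, 0 in arterial, 4 in venous and 4 mt- and 4 nuclear in Gpihbp1/Aqp1-high cells. Without scaling, 15 nuclear members passed in venous and 6 in Gpihbp1/Aqp1-high cells. In cells of 2000 to 6000 UMIs, 7 mt- genes passed in lymphatic cells, 11 nuclear members in venous and 9 in Gpihbp1/Aqp1-high cells, and the ratio differences were 0.022 (lymphatic), 0.11 (arterial) and 1.56 (venous), the first against a blood mean that holds the venous cells. Higher class limits gave 1 mt- gene and a ratio difference of 0.19 in arterial and 8 nuclear members in Gpihbp1/Aqp1-high cells. The arterial ratio difference was 0.064 without a limit on mitochondrial share, 0.11 under stricter cell limits and without the top doublet scores, 0.085 with cells of 2 classes put in the larger, and 0.076 without cells of other cell types. Without a limit on mitochondrial share, the Gpihbp1/Aqp1-high ratio of library 2 rose above that of Plvap-high cells. Where values moved, the cause was not tested.

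With 1 library left out, the ratio difference ran from 0.19 to 0.41 (lymphatic), from 0.087 to 0.087 (arterial), from 0.75 to 1.17 (venous) and from -0.30 to -0.15 (Gpihbp1/Aqp1-high). On library 1 alone 3 values turned sign: mt-Atp8 in lymphatic cells (-0.18, with 0.69 in library 2), Ndufa8 in venous cells (-0.042 and 0.23) and mt-Nd6 in venous cells (-0.0051 and 0.71). Of the values of named genes under the alternatives that keep both libraries, 1667 kept direction and side of the threshold, 124 no longer passed and 17 newly passed, with 35 of the 124 lost without the block and 24 under DESeq2. With 1 library left out there was no test, and 301 values kept their direction.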

Other observations

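Cells outside the 5 classes also held respiratory chain RNA. The 60 and 228 cells that met neither the lymphatic nor the blood limit had 5.54 and 6.10% mt- UMIs and 1.10 and 2.24% nuclear member UMIs, with median depths of 1350 and 2124.5 UMIs. In library 2 the 184 of these with under 5 pericyte marker UMIs held 92 UMIs of Cox7a1, the heart and muscle paralogue of complex IV, in 9 cells, while all 5572 class cells held 31. The 28 and 171 cells that met both venous and arterial limits had a ratio of mt- to nuclear UMIs of 3.11 and 2.85, between the venous and arterial values of their library, at median depths of 7900.5 and 7684 UMIs. The 3 and 96 cells that met both lymphatic and blood limits had ratios of 1.61 and 3.46. The limit on mt- share had removed 10 and 75 cells, 31 of the latter lymphatic.

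Across cells of a class, the nuclear share rose with UMIs per cell in all 5 classes of both libraries (Spearman's rho 0.21 to 0.47). The mt- share fell with UMIs in lymphatic cells (-0.41 and -0.58), venous cells (-0.50 and -0.44) and Plvap-high capillary cells (-0.35 and -0.26). It hardly moved in arterial cells (0.047 and -0.067) and Gpihbp1/Aqp1-high cells (-0.025 and -0.10). These are descriptions over 70 to 2362 cells that share library and depth, and the total UMI count enters both measures.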
